A study of Marmota monax with 203 samples.

Results

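The genes described here are 10 transcripts of the liver that encode plasma proteins of the acute phase response and regulators of iron: CRP, LBP, HP, HPX, A2M, CP, HAMP, TF, TFRC and SLC40A1. They were chosen by name, as genes of these functions, and all 10 of them occur among the 17587 genes in the deposited files. CRP, LBP, HP, HPX and A2M are taken below as the acute phase group (5 genes), and CP, HAMP, TF, TFRC and SLC40A1 as the iron group (5 genes). Each passed the filter on low counts in every comparison.

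The acute phase response is a change in what hepatocytes secrete during infection or tissue injury. It is driven largely by interleukin 6 and interleukin 1, which act through STAT3 and C/EBP transcription factors. Iron is handled in the same setting: hepcidin, the product of HAMP, is made by hepatocytes under the control of BMP and SMAD signalling and of interleukin 6, and it causes the iron exporter ferroportin, the product of SLC40A1, to be internalised and degraded. Cells short of iron stabilise the mRNA of the transferrin receptor TFRC, whose protein takes up iron bound to transferrin.

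Liver biopsies came from woodchucks born in captivity and infected as neonates with woodchuck hepatitis virus (WHV), so that both groups were chronic carriers. Animals received placebo or recombinant woodchuck IFN-α5 (wIFN-α) under the skin several times a week, at 20 μg per animal at weeks 0 and 3 and at 100 μg at weeks 7, 11 and 15. Week -3 preceded treatment, weeks 19 and 23 followed it, and the biopsies of weeks 0 to 15 were taken hours after a dose, that of week 0 after the first dose. The placebo group held 12 animals up to week 7 and then 10, 9, 5 and 9 at weeks 11, 15, 19 and 23. The wIFN-α group held 11 animals at weeks -3 and 0, 9 at weeks 3 and 7, 8 at weeks 11 and 15 and 6 afterwards, and some animals died during the study. Of those sampled at week 0, F1023 and M1006 were lost before the week 3 comparison. The paper gives severe pneumonia as the likely reason for F1023 and euthanasia in deteriorating health for M1006. The part of illness in their week 0 values was not tested. The wIFN-α animal M1004, which the study set apart because it was probably clearing the virus by itself, was not in these groups. The placebo group is the background for every comparison. Levels are given as CPM (read counts scaled to the total of all reads on genes in the biopsy, with TMM scaling between biopsies), which cannot tell fewer cells of a type from less RNA per cell.

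The biopsies held 12072840 to 84805845 reads on genes (median 28754894), so that counting error was small for all of these genes but HAMP in its lowest biopsies. The interferon response followed the labels. MX1, an interferon-induced antiviral GTPase, was at 3262 to 6087 CPM in the wIFN-α animals at week 0 and at 285 to 659 CPM in placebo, and all 7 of 7 interferon response genes that were checked rose at each week from 0 to 15. An exception was wIFN-α animal F1013 at week 3, with MX1 at 693 CPM and ISG15 at 2.72 CPM, which was kept in the comparisons. Off treatment, placebo animal M1005 at week 23 had ISG15 at 512 CPM with MX1 at 660 CPM. All 12 of 12 hepatocyte marker genes had reads in every group.

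Among the 149 biopsies 5 had over 5% of their reads on genes of skeletal muscle, a limit chosen after seeing the data. At week -3 these were wIFN-α animal F1018 (15.5% of its reads) and placebo animal F1016 (15.1%), in which hepatocyte markers took 0.278% and 0.479% of reads and HPX stood at 6.68 and 11.1 CPM, where the group medians were 5771 and 4999 CPM. The others were placebo animals F1021 (12.7%) and M1011 (5.7%) at week 3 and wIFN-α animal F1023 (8.44%) at week 0. Values at weeks -3, 0 and 3 are given with and without them where a call depends on them. The limit marks no gap: F1018 at week 3, with 3.09%, was kept, and M1011 had hepatocyte markers at 1.97% of reads. At week 3 the median muscle share was 0.83% in placebo and 0.0485% in wIFN-α livers, before any removal.

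The abundance of the 10 transcripts spanned more than 3 orders of magnitude in liver. On the scale of the deposited RPKM, which corrects for gene length, with each of the 12 placebo animals given by the median of its biopsies over all weeks, the median of the animals was 6731 for HP, 2176 for HPX, 2034 for TF and 731 for A2M. It was 344 for LBP, 215 for CRP, 143 for CP, 59.1 for HAMP, 51 for SLC40A1 and 3.92 for TFRC. Neighbours in this order overlapped between animals from HPX (1963 to 3109 RPKM) to TF (1519 to 2580) and along the run of LBP (183 to 542), CRP (189 to 279), CP (88.2 to 192), HAMP (4.42 to 147) and SLC40A1 (33.3 to 62.7). HP, at 5416 RPKM or more in each animal, did not overlap HPX, nor did TF overlap A2M (544 to 1035), A2M overlap LBP, or SLC40A1 overlap TFRC (2.31 to 9.45). The place of HAMP in this order depended on the week: its placebo median was 241 RPKM at week 0, above that of CP (153), and 2.43 RPKM at week 19, below that of TFRC (9.58).

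A call required both a fold change of more than 1.5 and an adjusted p below 0.05, from the quasi-likelihood test of edgeR with p values adjusted over all genes tested (Benjamini-Hochberg). Before treatment, at week -3, 0% of all genes and 0 of the 10 members were called (130 genes had an unadjusted p under 0.05, and DESeq2 and limma-voom called 0 members). Without the muscle-rich biopsies the log2 differences between groups at week -3 ran from -0.28 ± 0.22 (SE) for TFRC to 0.57 ± 0.61 for HAMP. During treatment 4 members were called at week 0, where 18.5% of all genes were called, 1 at week 3 (10.8% of all genes), 3 at week 7 (21.6%), 2 at week 11 (20.5%) and 5 at week 15 (22.3%). The acute phase group held 1, 1, 3, 1 and 4 of these calls and the iron group 3, 0, 0, 1 and 1. The same genes and animals recur over the weeks, and at weeks 3, 7 and 11 the members called were near the share of all genes. The counts at weeks 0 and 15 were not tested against it. CP, called at weeks 0 and 15, is itself an acute phase protein but was counted in the iron group. The acute phase group had median log2 fold changes of 0.44, 0.31, 0.71, 0.42 and 0.82 at weeks 0, 3, 7, 11 and 15, and all genes had medians between -0.04 and -0.01. The medians of the iron group were -0.22, -0.01, 0.06, 0.17 and 0.16.

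**Figure D1:**
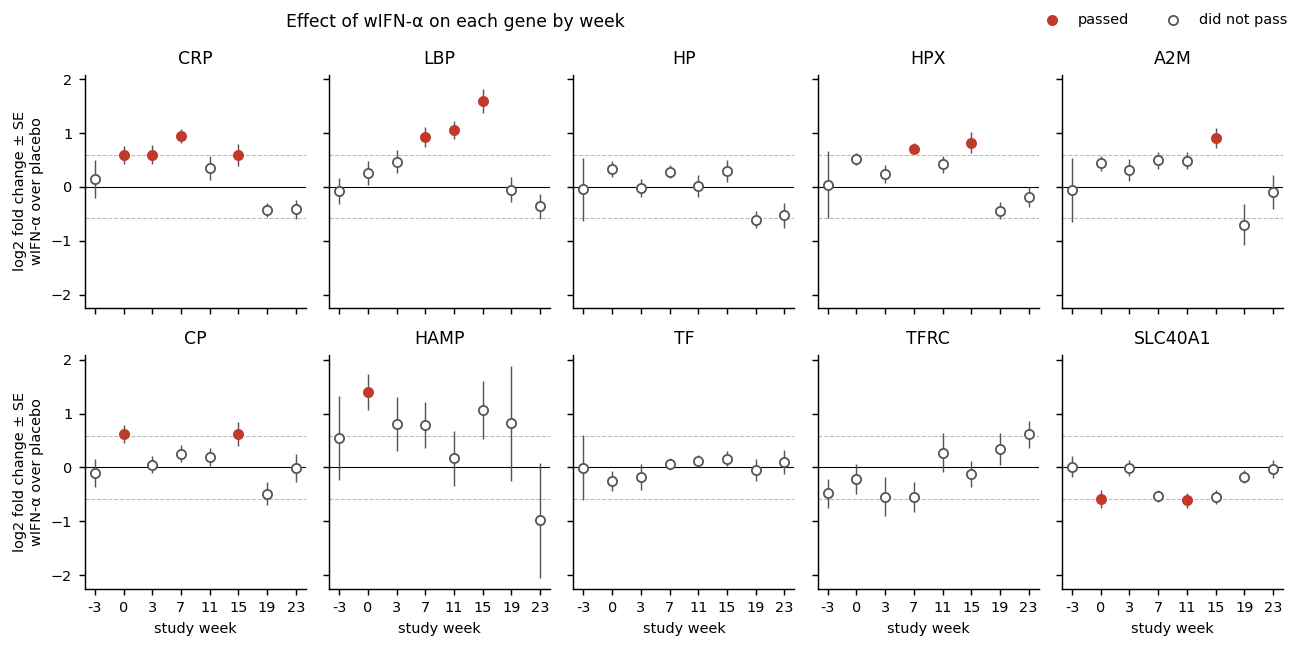
Log2 fold change of wIFN-α over placebo for each of the 10 genes at each study week, with its standard error as a bar, filled where the gene was called. Dashed lines mark the fold change required for a call. LBP was at 0.26 at week 0 and at 1.60 at week 15, SLC40A1 lay below 0 at every week of treatment, and no gene was called at weeks -3, 19 and 23.

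CRP encodes C-reactive protein, a pentraxin that binds phosphocholine on microbes and damaged cells. At week 0 it was at 482, 691 and 1070 CPM (lowest, median and highest animal) in placebo and at 740, 1048 and 1627 CPM in wIFN-α livers. All 11 wIFN-α animals lay above the placebo median and 5 above every placebo animal. The log2 fold change was 0.59 ± 0.16 (SE, n = 11 and 12, adjusted p = 0.00675), and it fell short of the fold required without M1007 (0.57), F1013 (0.53) or F1022 (0.53). At week 3 it was 0.60 ± 0.18 (adjusted p = 0.0218), and without the muscle-rich biopsies it was 0.51 (adjusted p = 0.041), under the fold required for a call. It was lost as well without F1014 (0.54) or F1022 (0.50, adjusted p = 0.0578). CRP was most clearly higher at week 7, with 321, 458 and 622 CPM in placebo and 631, 811 and 1341 CPM in wIFN-α livers. The 9 wIFN-α animals did not overlap the 12 placebo animals there, a separation also shown by 10.8% of genes whose mean reached 1 CPM. Its log2 fold change was 0.95 ± 0.13 (adjusted p = 4.51e-06).

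At week 11 the CRP difference was 0.36 ± 0.22 (adjusted p = 0.227). At week 15 placebo animals stood at 208, 362 and 447 CPM and wIFN-α animals at 316, 477 and 768 CPM, a log2 fold change of 0.60 ± 0.21 (adjusted p = 0.029). The wIFN-α animals fell apart there: F1013, F1014, F1022 and M1012 were at 768, 736, 607 and 593 CPM, above every placebo animal, and M1003, F1020, M1002 and F1018 were at 360, 340, 319 and 316 CPM, below the placebo median. This call was kept in 10 of 31 alternative analyses, with adjusted p values from 0.0158 to 0.237. It was lost without M1005, M1008, M1012, F1013, F1014, F1016, F1017, F1021 or F1022, each left out alone. With each animal as a replicate block, where the effect is taken relative to week -3, CRP was lost at week 0 (0.53 ± 0.29, adjusted p = 0.183), week 3 (0.56, adjusted p = 0.204) and week 15 (adjusted p = 0.237), and it was kept at week 7.

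LBP encodes the lipopolysaccharide-binding protein, which passes bacterial endotoxin to CD14. At week 0 placebo animals were at 354, 1153 and 2002 CPM and wIFN-α animals at 1040, 1304 and 1979 CPM, with a log2 difference of 0.26 ± 0.23 (adjusted p = 0.411). The wIFN-α animals lay within the placebo range. LBP at week 3 differed by 0.47 ± 0.22 (adjusted p = 0.134), and with the replicate block by 0.63, which passed (adjusted p = 0.0387). It did not pass with the block and without the muscle-rich biopsies (0.58, adjusted p = 0.0647), nor with a random block (0.56, adjusted p = 0.0435), where the fold fell short. At week 7 placebo stood at 370, 732 and 1541 CPM and wIFN-α at 1009, 1318 and 2029 CPM, and LBP was higher by 0.93 ± 0.19 (adjusted p = 0.000317).

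At weeks 11 and 15 the groups did not overlap in LBP. At week 11 placebo animals were at 281, 597 and 849 CPM and wIFN-α animals at 894, 1153 and 1504 CPM, a log2 fold change of 1.06 ± 0.17 (adjusted p = 7.43e-05). At week 15 the values were 373, 502 and 692 CPM and 924, 1283 and 3477 CPM, a log2 fold change of 1.60 ± 0.22 (adjusted p = 1.91e-05). Such separation was found for 9.55% of genes at week 11 and 11.8% at week 15. F1013 had the highest value at week 15, and without it the groups still did not overlap (924 to 1525 CPM in the other wIFN-α animals). LBP was called in 22 of 22 alternatives at week 11 and in 31 of 31 at week 15, the replicate block included.

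LBP reached a larger fold without reaching a higher level in treated livers. From week 0 to week 15 its level rose in 4 and fell in 4 of the 8 wIFN-α animals sampled at both weeks, with a median change of -0.00 on the log2 scale. In placebo livers it was lower at week 15 in 8 of 9 animals, with a median change of -1.15.

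**Figure D2:**
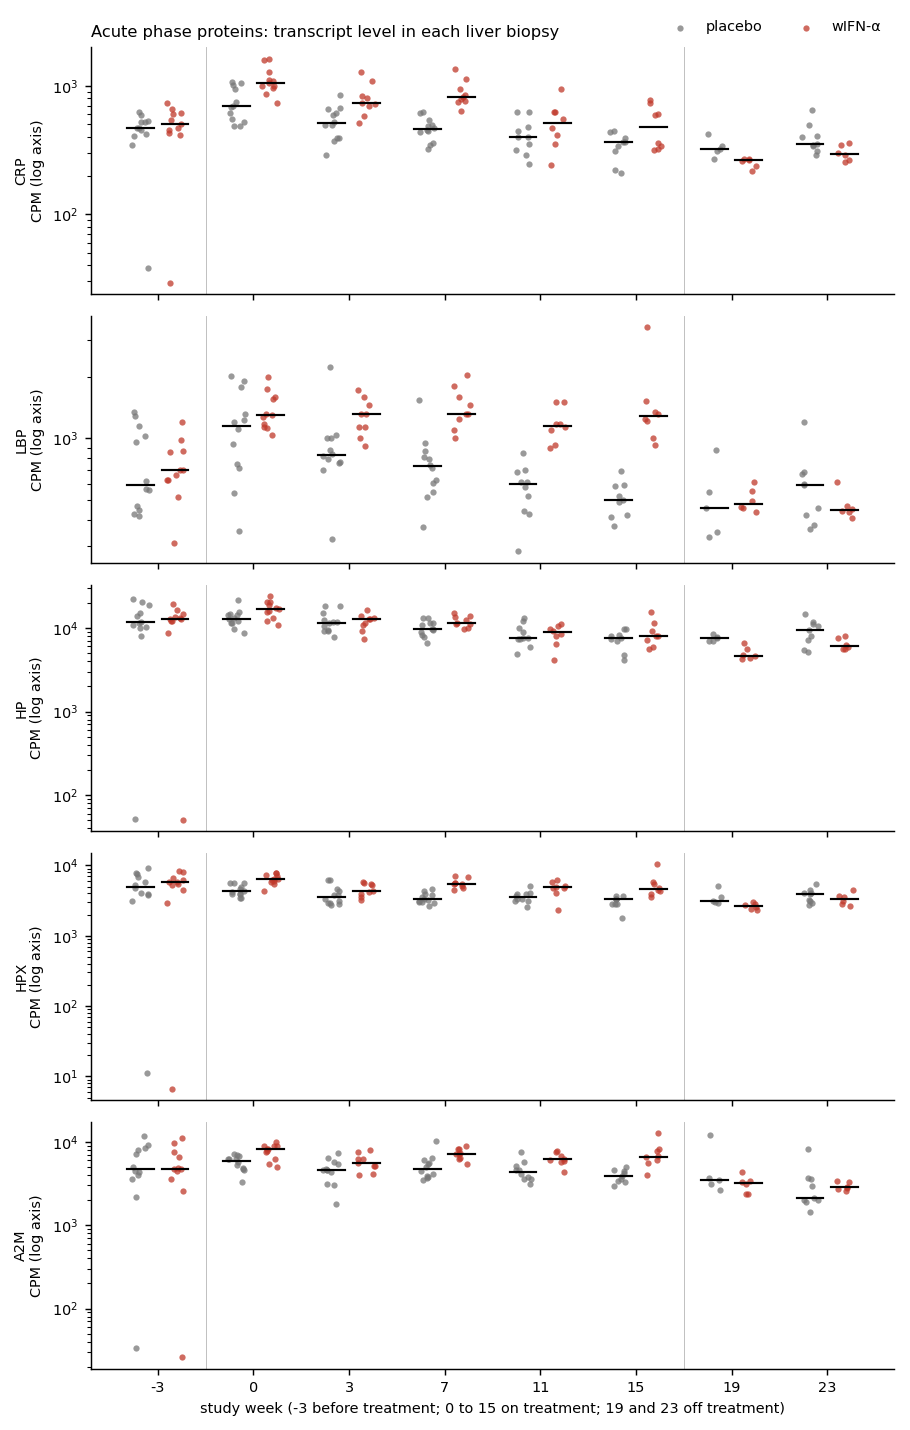
Transcript level (CPM, log axis) of the 5 acute phase genes in each biopsy by study week, grey for placebo and red for wIFN-α, with a black line at each group median. The wIFN-α animals lay above all placebo animals in LBP at weeks 11 and 15 and in CRP at week 7, and 1 biopsy in each group at week -3 was far below the rest in CRP, HP, HPX and A2M.

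HP encodes haptoglobin, which captures free hemoglobin. It was the most abundant of the 10 transcripts by RPKM, and it was called at no week. Placebo animals were at 8682, 12946 and 21778 CPM and wIFN-α animals at 10974, 16916 and 24182 CPM at week 0, with a log2 difference of 0.33 ± 0.15 (adjusted p = 0.0859). HP differed at week 7 by 0.28 ± 0.12 (adjusted p = 0.0592) and at week 15 by 0.30 ± 0.21 (adjusted p = 0.269). The groups overlapped at each week of treatment.

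HPX encodes hemopexin, which binds free heme and carries it to the liver. At week 0 placebo animals were at 3478, 4255 and 5683 CPM and wIFN-α animals at 4299, 6306 and 7920 CPM, and 9 of the 11 wIFN-α animals lay above all 12 placebo animals. The log2 fold change was 0.52 ± 0.12 (adjusted p = 0.000979), which passed the test but not the fold required. At week 7 placebo stood at 2614, 3280 and 4620 CPM and wIFN-α at 4531, 5395 and 7140 CPM, and HPX was called at 0.71 ± 0.10 (adjusted p = 6.44e-06). At week 15 it was called at 0.82 ± 0.19 (adjusted p = 0.00227), with 1784, 3307 and 3717 CPM in placebo and 3591, 4566 and 10318 CPM in wIFN-α livers, 7 of 8 above every placebo animal. With the replicate block the calls at weeks 7 and 15 were lost (adjusted p = 0.277 and 0.213), and with the block and without the muscle-rich biopsies they were kept (adjusted p = 0.00477 and 0.00133). Both were also lost with a random block and with the lane as a covariate, and that of week 7 in a fit of all weeks.

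A2M encodes alpha-2-macroglobulin, a broad inhibitor of proteases whose behaviour in the acute phase differs between species. Its log2 fold changes were 0.44 ± 0.14 at week 0 (adjusted p = 0.014), 0.50 ± 0.16 at week 7 (adjusted p = 0.015) and 0.49 ± 0.16 at week 11 (adjusted p = 0.0238), which passed the test but not the fold. At week 15 placebo animals were at 2926, 3914 and 5029 CPM and wIFN-α animals at 4035, 6581 and 12701 CPM. Of the 8 wIFN-α animals 7 lay above all placebo animals, and A2M was called at 0.91 ± 0.19 (adjusted p = 0.00074). With the replicate block this call was lost (adjusted p = 0.165), and with the block and without the muscle-rich biopsies it was kept at 0.88 (adjusted p = 0.00756). It was also lost with a random block and with the lane as a covariate.

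CP encodes ceruloplasmin, a copper-carrying ferroxidase that helps to load iron onto transferrin and is itself an acute phase protein. At week 0 placebo animals were at 495, 1087 and 1653 CPM and wIFN-α animals at 951, 1738 and 2765 CPM. Of the 11 wIFN-α animals 6 exceeded every placebo animal, and the log2 fold change was 0.62 ± 0.17 (adjusted p = 0.00596). At week 3 the difference was 0.05 ± 0.16 (adjusted p = 0.857), with medians of 992 and 983 CPM. CP was called again at week 15, at 0.62 ± 0.22 (adjusted p = 0.0287), with 586, 1046 and 1747 CPM in placebo and 1092, 1329 and 2621 CPM in wIFN-α livers. The call at week 0 was kept with the replicate block, fixed or random. That at week 15 was kept with the fixed block (0.75, adjusted p = 0.0197) and lost with the random one (0.58, adjusted p = 0.039, short of the fold) and with the lane as a covariate in a fit of all weeks (0.51, adjusted p = 0.0677). At week 15 the call was lost without F1013 (0.46, adjusted p = 0.0832), F1020 (0.53, adjusted p = 0.0642), placebo animal M1001 (0.55, adjusted p = 0.0504) or placebo animal F1021 (0.52, adjusted p = 0.0551), and at week 0 without M1003 (0.58) or M1007 (0.52), where the fold fell short.

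HAMP encodes hepcidin, the hormone that limits the entry of iron into plasma. At week 0 placebo animals were at 17.7, 97.4 and 200 CPM and wIFN-α animals at 118, 207 and 467 CPM. All 11 wIFN-α animals lay above the placebo median and 6 above every placebo animal, and the log2 fold change of 1.40 ± 0.33 (adjusted p = 0.00159) was the largest among the members at that week. It was called without any single wIFN-α animal and without the muscle-rich biopsy (1.34 ± 0.33, adjusted p = 0.00291). With the replicate block, that is relative to week -3, it was 0.78 ± 0.79 (adjusted p = 0.525). With the block and without the muscle-rich biopsies it was 0.94 (adjusted p = 0.34). The call was lost as well with a random block and in a fit of all weeks without a block, and it was kept in 22 of 26 alternatives.

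At the later weeks of treatment HAMP differed by 0.81 ± 0.51, 0.79 ± 0.43, 0.17 ± 0.51 and 1.07 ± 0.54 at weeks 3, 7, 11 and 15, with adjusted p values of 0.271, 0.133, 0.824 and 0.122. Its spread between animals was wide. At week 15 placebo animals ranged from 0.436 to 31.9 CPM around a median of 19.3 and wIFN-α animals from 10.6 to 95.4 CPM around a median of 33.3, and 5 of the 8 wIFN-α values exceeded the highest of placebo. The 95% interval of the difference at week 15 ran from -0.07 to 2.21 on the log2 scale, so that a rise of the size seen at week 0 was within it.

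SLC40A1 encodes ferroportin, the exporter of cellular iron. It was the member that was lower in treated livers. At week 0 placebo animals were at 160, 246 and 344 CPM and wIFN-α animals at 96.8, 170 and 254 CPM, with 10 of 11 wIFN-α animals below the placebo median, and the log2 fold change was -0.59 ± 0.16 (adjusted p = 0.0065). Without F1023, the animal with the muscle-rich biopsy, it was -0.54 (adjusted p = 0.0107), under the fold required, as it was without M1006 (-0.54), M1007 (-0.53), F1014 (-0.55) or F1022 (-0.58). The lowest values were those of M1007, F1023 and M1006, at 96.8, 104 and 105 CPM. F1023 and M1006 were the animals in poor health lost after week 0, and week 0 was not fitted without both. At week 3 the difference was -0.01 ± 0.15 (adjusted p = 0.973), with medians of 206 CPM in placebo and 173 CPM in wIFN-α livers. The highest wIFN-α value there, 265 CPM, was that of F1013, which lacked the interferon response at that week.

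At week 7 SLC40A1 was at 172, 246 and 294 CPM in placebo and at 115, 163 and 213 CPM in wIFN-α livers (-0.53 ± 0.11, adjusted p = 0.000373), at week 11 at 156, 251 and 326 CPM and 113, 156 and 221 CPM (-0.61 ± 0.14, adjusted p = 0.0021), and at week 15 at 138, 239 and 319 CPM and 108, 154 and 185 CPM (-0.55 ± 0.13, adjusted p = 0.00245). Every wIFN-α animal lay below the placebo median at these weeks, although the ranges overlapped. Of the 3 weeks, week 11 passed both the test and the fold, and the call there was lost without M1002 (-0.56) or F1020 (-0.57). With the replicate block SLC40A1 was called at weeks 0, 7, 11 and 15 (-0.61, adjusted p = 0.00988, at week 7, and -0.67, adjusted p = 0.00684, at week 15). With the block and without the muscle-rich biopsies it was called at weeks 11 and 15 (-0.68 and -0.63), and fell short of the fold at week 0 (-0.55, adjusted p = 0.00287) and week 7 (-0.57, adjusted p = 0.00247). With the random block it fell short at week 7 (-0.55).

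TF encodes transferrin, the iron carrier of plasma, and TFRC its cellular receptor. TF was called at no week, with log2 differences from -0.24 ± 0.19 at week 0 to 0.16 ± 0.14 at week 15. Its medians at week 15 were 21168 CPM in placebo and 20159 CPM in wIFN-α livers. TFRC was not called either. At week 0 placebo animals were at 13, 15.3 and 38.5 CPM and wIFN-α animals at 8.15, 12.1 and 55.6 CPM (-0.22 ± 0.28, adjusted p = 0.593), and 7 of the 11 wIFN-α animals lay below every placebo animal. At weeks 3 and 7 the differences were -0.54 ± 0.36 (adjusted p = 0.299) and -0.55 ± 0.27 (adjusted p = 0.103). Without F1018 TFRC at week 3 was -0.93 and passed (adjusted p = 0.0449).

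**Figure D3:**
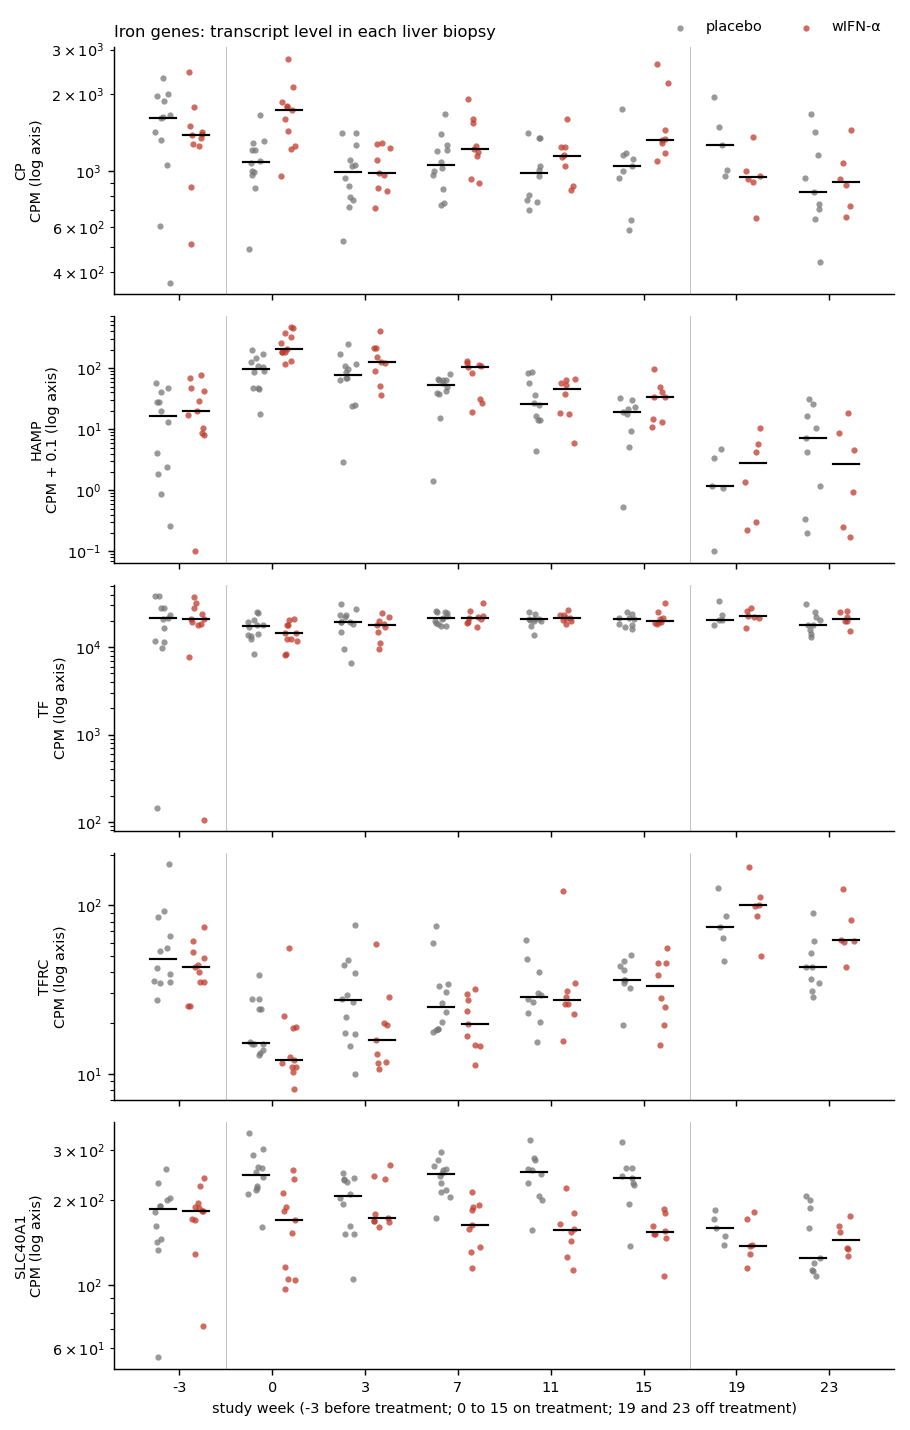
Transcript level (CPM, log axis, with 0.1 added for HAMP) of the 5 genes of the iron group in each biopsy by study week, grey for placebo and red for wIFN-α, with a black line at each group median. The medians of HAMP were lower and those of TFRC higher at week 19 than at week 0 in both groups, and SLC40A1 was lower in wIFN-α than in placebo livers at weeks 0, 7, 11 and 15.

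The sequencing lanes held biopsies of both groups, with the lane of a biopsy taken as the lane number of its deepest run. Whether 1 number covers a single sequencing run was not checked. The 45 wIFN-α and 55 placebo biopsies of weeks 0 to 15 were averaged within each of the 7 lanes, with 3 and 5 biopsies in lane 8. Animals recur between lanes, so that the lanes are not independent. The wIFN-α biopsies were higher in 7 of 7 lanes in CRP (log2 differences of 0.35 to 1.09), LBP (0.49 to 1.38), HPX (0.33 to 0.83), A2M (0.10 to 0.74) and HAMP (0.44 to 1.98). SLC40A1 was higher in 0 of 7 lanes (-0.69 to -0.19). CP was higher in 6, HP in 5, TF in 3 and TFRC in 1 of the 7 lanes. With the lane as a covariate in a fit of all weeks, LBP and SLC40A1 were called at week 15, and CRP, HPX, A2M and CP were not.

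Some markers of cell types differed between the groups as well. Their calls are to be read against the 18.5%, 10.8%, 21.6%, 20.5% and 22.3% of all genes called at weeks 0, 3, 7, 11 and 15. Hepatocyte markers together took 1.58% to 2.57% of reads in placebo and 1.16% to 2.09% in wIFN-α livers at week 0, and 1.61% to 2.71% and 1.39% to 1.94% at week 15. At week 15, 1 of 12 hepatocyte, 0 of 12 proliferation and 0 of 10 T and NK cell markers were lower, and 0, 10 and 9 of them were higher. Of the Kupffer and myeloid markers 5 of 12 were higher at week 15, with 0.0421% to 0.0925% of reads in placebo and 0.0608% to 0.18% in wIFN-α livers. Stellate and fibroblast markers were lower in 1, 4, 5, 0 and 3 of 6 at weeks 0, 3, 7, 11 and 15, with medians of 0.332% of reads in placebo and 0.0386% in wIFN-α livers at week 3 and of 0.044% and 0.0346% at week 15. Of the 8 endothelial markers 1 was higher and 1 or 2 were lower at each of these weeks. Calls on the hepatocyte and endothelial lists were few, and no list was tested against the share of all genes. Proliferation markers were lower at week 0 in 6 of 12 and took 0.0171% to 0.0276% and 0.0121% to 0.0232% of reads. No marker on these lists was without reads in a whole group. Their part in the values of the members was not tested.

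The effect at 100 μg (week 15) was compared with that at 20 μg (average of weeks 0 and 3) by subtracting the second from the first in a fit of all weeks. A difference between effects was called at an adjusted p under 0.05 alone. The fit held no term for the animal, so that repeated biopsies of an animal counted as independent. Of all genes 2.26% were called and of the members 1, LBP, with a difference of 1.21 ± 0.29 on the log2 scale (adjusted p = 0.00471). It was lost without F1013 (0.93, adjusted p = 0.0673), with week 3 alone as the low dose (1.10, adjusted p = 0.0575) and in limma-voom (1.00, adjusted p = 0.0527). Dose and duration of treatment rose together in this design and cannot be told apart. For CRP the difference was -0.02, with a 95% interval from -0.59 to 0.55, and for HAMP -0.06, from -1.68 to 1.57.

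The response to the first dose at week 0 was compared with that to repeated doses at week 3 in the same fit. F1023 and M1006, lost after week 0, entered the first of these alone, and the comparison was not run without both. Of all genes 2.40% and of the members 0 were called (2571 genes and 2 members, CP and SLC40A1, had an unadjusted p under 0.05, and limma-voom called 0 members). The difference was 0.56 ± 0.28 for CP (adjusted p = 0.298) and -0.58 ± 0.21 for SLC40A1 (adjusted p = 0.128). For HAMP it was 0.58, with a 95% interval from -1.13 to 2.30.

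At weeks 19 and 23, after treatment ended, 0% of all genes were called at each week in edgeR, and 0 of the members. At unadjusted p under 0.05 there were 1859 and 2416 genes, DESeq2 called 89 and 53 genes, among them HP at week 19, and limma-voom called 0. HP at week 19 stood at 6877, 7000, 7490, 7806 and 8480 CPM in the 5 placebo animals and at 4290, 4314, 4558, 4690, 5661 and 6678 CPM in the 6 wIFN-α animals, which all lay below placebo. Its log2 difference was -0.61 ± 0.15 (adjusted p = 0.297 in edgeR and 0.00311 in DESeq2), and 1.42% of genes were separated in this way at week 19. CRP at week 19 was at 267, 312, 323, 338 and 424 CPM in placebo and at 217 to 268 CPM in wIFN-α livers (-0.43 ± 0.13, adjusted p = 0.297). Over both weeks 2.54% of all genes and 0 of the members were called (3897 genes had an unadjusted p under 0.05), with differences of -0.56 ± 0.26 for HP (adjusted p = 0.173) and -0.41 ± 0.20 for CRP (adjusted p = 0.195). The acute phase group, higher during treatment, had a median of -0.39 off treatment, and all genes a median of -0.03.

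The effect at week 15 was set against the mean of the effects at weeks 19 and 23 to see which differences ended with treatment. Of all genes 27.8% were called and of the members 5: LBP by 1.77 ± 0.32 (adjusted p = 2.45e-06), A2M by 1.28 ± 0.45 (adjusted p = 0.0224), HPX by 1.10 ± 0.43 (adjusted p = 0.0419), CRP by 0.98 ± 0.32 (adjusted p = 0.0123) and CP by 0.84 ± 0.29 (adjusted p = 0.0189). LBP was kept in 20 of 20 alternatives and was the 1 member called in limma-voom. The animals left out in these alternatives were all from the wIFN-α group. Placebo animal M1008 had the highest placebo values of A2M at week 19 (12105 CPM) and of LBP at week 23 (1204 CPM). The calls were not tested without M1008 or any other placebo animal. HPX was lost without M1003, M1012, F1013, F1014 or F1022 (adjusted p from 0.0528 to 0.104), and A2M with the replicate block (1.01, adjusted p = 0.0675). Without F1013 A2M was at 1.14 (adjusted p = 0.0607) and CP at 0.72 (adjusted p = 0.0611). In the 6 wIFN-α animals sampled at weeks 15 and 19, LBP, HPX, A2M, HP, CRP and HAMP were lower at week 19 in 6 of 6 and TFRC was higher in 6 of 6. Placebo animals moved over the same weeks too: HAMP was lower in 5 of 5, CRP, LBP, HP and A2M in 4 of 5 and HPX in 2 of 5, and TFRC was higher in 5 of 5. The median log2 changes of LBP were -1.46 in wIFN-α and -0.34 in placebo animals, those of HPX -0.89 and 0.03, and those of HAMP -3.60 and -2.57.

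The response of the members did not differ detectably between sexes. At weeks 0 and 15, 0% of all genes and 0 members were called for an interaction of sex and treatment in edgeR (381 and 715 genes had an unadjusted p under 0.05, and limma-voom called 0 members). The largest interaction among the members was that of HAMP at week 0, at -1.17 ± 0.62 (adjusted p = 1), with the smaller response in females, and at week 15 that of TFRC, at -0.98 ± 0.39 (adjusted p = 0.998).

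The levels of HAMP and TFRC also moved with time in placebo livers. These comparisons were chosen after seeing the data. From week -3 to week 0 HAMP rose in 12 of 12 placebo animals, from a median of 16.6 to 97.4 CPM, and TFRC fell in 12 of 12, from 48 to 15.3 CPM. In the fit of all weeks HAMP was higher at week 0 by 2.27 ± 0.61 (adjusted p = 0.00421), TFRC lower at -1.61 ± 0.28 (adjusted p = 7.98e-06) and CRP higher by 0.72 ± 0.21 (adjusted p = 0.00828), and 7.69% of all genes were called. Without the muscle-rich biopsies CRP was higher by 0.60 (adjusted p = 0.00271), and with the replicate block as well by 0.54 (adjusted p = 0.00126), short of the fold. In the wIFN-α animals HAMP rose in 11 of 11 and TFRC fell in 11 of 11 over the same weeks.

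From weeks 0 and 3 to weeks 19 and 23, 18.0% of all genes and 5 members were called in placebo livers. HAMP fell by 4.33 ± 0.66 on the log2 scale (adjusted p = 3.38e-08) and TFRC rose by 1.30 ± 0.23 (adjusted p = 1.26e-06). LBP was at -0.89 ± 0.18 (adjusted p = 2.36e-05), CRP at -0.77 ± 0.18 (adjusted p = 0.000289) and HP at -0.60 ± 0.23 (adjusted p = 0.0277). HAMP was lower than at week 0 in 5 of 5 placebo animals at week 19 and in 9 of 9 at week 23, and its 5 placebo values at week 19 were 4.66, 3.31, 1.08, 0.986 and 0 CPM. The value of 0 belongs to M1011, in which a count of 0 allows up to 0.111 CPM. The calls of HAMP and TFRC were kept with the replicate block, without the muscle-rich biopsies and with the lane as a covariate, and the call of HP was lost in limma-voom, with the animal as a random block and with the lane as a covariate. A change with time that both groups share takes no part in the comparisons of wIFN-α with placebo of the same week.

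**Figure D4:**
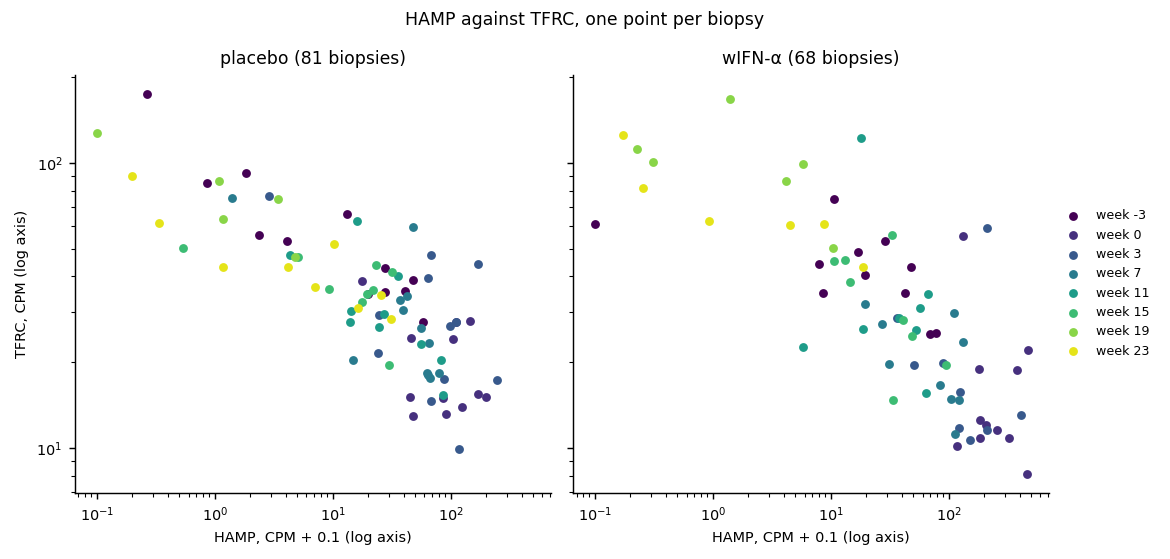
HAMP level on the x axis (CPM + 0.1, log axis) against TFRC level on the y axis (CPM, log axis), 1 point per biopsy, with placebo in the left panel, wIFN-α in the right panel and the colour giving the study week. High HAMP went with low TFRC: most biopsies of week 0 lie at the lower right of each panel and those of week 19 toward the upper left.

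Across the 149 biopsies HAMP and TFRC were the pair of members with the most negative correlation (Pearson r of -0.81 on log2(CPM + 1)). It was -0.81 over the 144 biopsies without the muscle-rich ones, and -0.57 after the mean of each group and week was removed. These points share animals, lanes and weeks, so that they are not independent, and r is a description. HP and HPX had the highest, at 0.94 over all biopsies, 0.79 without the muscle-rich ones and 0.97 within group and week. LBP was less tied to HP (0.42, 0.54 and 0.33) than CRP was (0.83, 0.79 and 0.87). TF and HP stood at 0.76 over all biopsies, at 0.03 without the muscle-rich ones and at 0.90 within group and week, where the muscle-rich ones are included.

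The genes most like each member over the same 149 biopsies were named by the highest r among 8743 genes whose mean reached 10 CPM. Both groups and all weeks are pooled in these values, so that a shared shift with treatment or time can raise r. They were not computed within group and week. For CRP these were the fibrinogen genes FGB (0.90) and FGA (0.89), for HPX the complement gene CFB (0.96) and AMBP (0.94), for A2M CFB (0.91) and C3 (0.91), and for TF the gene CPN1 (0.92). For LBP they were IFNAR2, a subunit of the receptor for type I interferon, and PTPN2, each at 0.77. For HAMP the nearest was MAG (0.86), which lies next to HAMP in the human genome, and whether reads of the 2 genes were shared was not tested. For SLC40A1 it was IKBKG (0.74), and for TFRC no gene exceeded 0.66. Without the 5 muscle-rich biopsies r was lower for TF with CPN1 (0.55), HPX with AMBP (0.63) and CFB (0.85), and A2M with CFB (0.70) and C3 (0.68), and it was 0.87 for CRP with FGB, 0.77 for LBP with IFNAR2 and 0.85 for HAMP with MAG.

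Genes of the same pathways were described from lists of other genes, to be read against the 18.5% of all genes called at week 0 and the 22.3% called at week 15. Of 20 further positive acute phase genes 3 rose at week 0 and 7 at week 15, 0 fell at either, and the median log2 fold changes were 0.25 and 0.65 (-0.01 over all genes at each week). Of these genes 3, 8 and 3 rose at weeks 3, 7 and 11, with medians of 0.08, 0.44 and 0.07, and LCN2, which encodes the siderophore-binding lipocalin 2, fell at weeks 3 (-1.37 ± 0.44) and 7 (-0.63 ± 0.17). At week 15 these included the complement gene CFB (0.99 ± 0.16), ITIH4 (0.93 ± 0.12), the serum amyloid gene SAA4 (0.91 ± 0.23) and the fibrinogen gene FGB (0.85 ± 0.29), and at week 0 the interleukin 1 antagonist IL1RN (2.16 ± 0.46) and CFB (0.88 ± 0.12). SAA and ORM genes are close copies between which reads may be split, so that their values are uncertain. Of 9 negative acute phase genes, which fall in the classical response, 0 changed at week 0 and 1 at week 15, the cortisol carrier SERPINA6 (-1.11 ± 0.40), and the medians were 0.05 and 0.11.

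Of 19 genes that regulate hepcidin 4 rose and 1 fell at week 0, and 4 rose and 2 fell at week 15. SMAD1, which carries the BMP signal, was at 1.48 ± 0.12 at week 0 and 1.79 ± 0.08 at week 15, the hemojuvelin partner NEO1 at 1.43 ± 0.12 and 1.66 ± 0.17, and ID1, a target of BMP signalling, at 1.21 ± 0.38 at week 15. ATOH8 was lower at week 15 (-1.03 ± 0.38). The list medians were 0.05 and 0.09, and the calls of either direction, 5 and 6 of 19, were not tested against the share of all genes.

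Of the genes of iron and heme handling 5 of 21 rose and 0 fell at week 0, and 3 of 22 rose and 1 fell at week 15. HMOX1, the heme oxygenase that frees iron from heme, was at 1.67 ± 0.30 and 2.49 ± 0.28, FBXL5, an iron-sensing ubiquitin ligase subunit, at 0.97 ± 0.11 at week 0, and the metal transporter SLC39A14 at 0.84 ± 0.23 and the mitochondrial iron importer SLC25A37 at 0.68 ± 0.08 at week 15. CD163, the receptor for the complex of hemoglobin and haptoglobin on macrophages, was at -1.94 ± 0.77 at week 15 (adjusted p = 0.0498). The medians of this list were 0.05 and -0.04, and its calls, 5 of 21 and 4 of 22, were near the share of all genes.

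Of 17 genes of interleukin 6, interleukin 1 and STAT3 signalling 9 rose at week 0 and 7 at week 15, and 0 fell, with medians of 0.66 and 0.53. TNF was at 3.07 ± 0.43 at week 15 and 1.71 ± 0.35 at week 0, the oncostatin M receptor OSMR at 1.63 ± 0.08 and the STAT3 targets BCL3 and PIM1 at 1.31 ± 0.21 and 1.12 ± 0.11 at week 15, and the acute phase transcription factor CEBPD at 1.92 ± 0.24 at week 0. At weeks 19 and 23, each fitted by itself in edgeR, none of these lists held a called gene. Over both weeks 4 genes of these lists were lower: CD163 (-1.78 ± 0.55), SLC25A37 (-0.61 ± 0.11), the cytokine IL1B (-0.76 ± 0.19) and NFKBIZ (-0.74 ± 0.15).

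**Figure D5:**
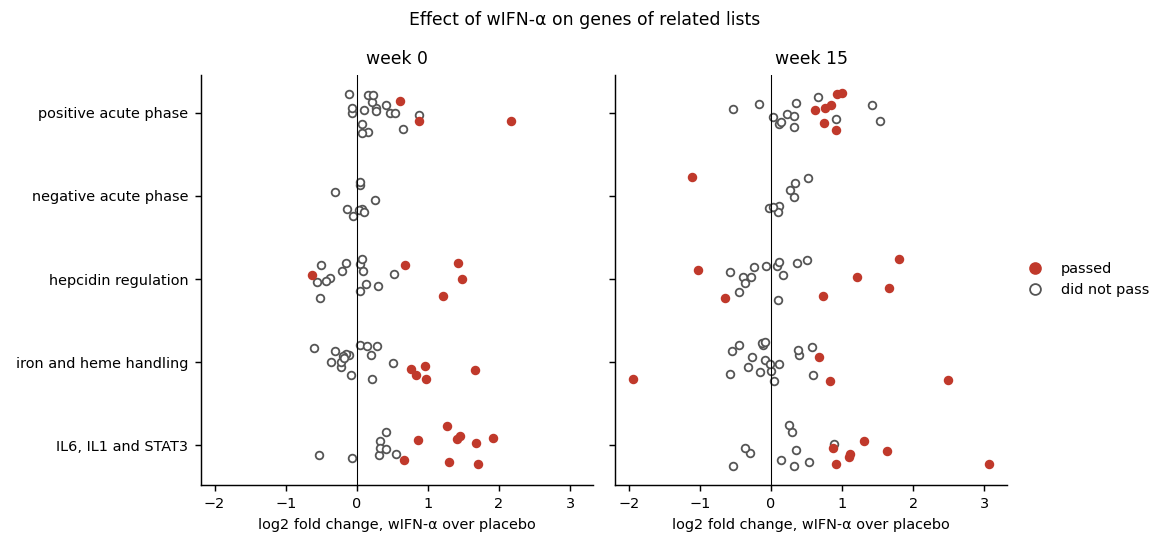
Log2 fold change of wIFN-α over placebo for each tested gene of 5 related lists at weeks 0 and 15, filled where the gene was called. Most called genes lie above 0, and the negative acute phase genes lie near 0 apart from SERPINA6 at week 15.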

How the data were processed

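Liver RNA was made into poly(A) libraries and sequenced as paired reads of 50 nt. The authors mapped the reads with Bowtie2 to their own woodchuck transcriptome assembly, and they counted them per gene with SAMtools. The deposited expected counts are not normalized, and 92 of 3367820 nonzero entries are fractions. The deposited RPKM values, scaled by the authors for gene length and library size, were used only for levels between genes, from the deepest run of each biopsy. The submitters' processing notes also name CASAVA, FastQC and DESeq. Genes not listed in a run were taken as 0, and the virus was kept out of library sizes. The files give symbols without coordinates or strand.

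Counts were added over the 203 runs to give 1 rounded count per gene in each of 164 biopsies. The comparisons used 149 biopsies, leaving out 7 of M1004 and 8 of other weeks. Labels that count the first week of treatment as 1 were set to study weeks. Totals of 12072840 to 84805845 reads per biopsy set the counting error, and intervals otherwise come from the spread between animals.

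Each week was fitted by itself in edgeR 4.0.16 (R 4.3.3), with TMM scaling, filterByExpr, quasi-likelihood tests and p values adjusted by Benjamini-Hochberg. The standard error was the effect divided by the root of its F statistic. Differences between weeks came from a fit of all weeks. The fits were tried on simulated counts drawn independently for each biopsy. Such counts hold no likeness between biopsies of an animal, so that they cannot show how it affects the fit of all weeks. The alternatives were DESeq2 1.42.0, limma-voom (limma 3.58.1), RLE size factors, no filter, the deepest run, M1004 included, sex or lane as a covariate, other fold thresholds, the animal as a replicate block and animals left out. The removal of muscle-rich biopsies and the placebo comparisons over time were chosen after seeing the data. Samples of an animal at different weeks carry its number in the labels. The main fit of all weeks had no term for the animal, so that its biopsies were treated there as independent. The animal entered in the replicate block and in the counts of animals that rose or fell between weeks. Deviations from the group mean had a median correlation of 0.29 within animals (450 pairs, of which 312 were over 0.1) and -0.02 between animals (4409 pairs).

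The members and gene lists were chosen with earlier results of these data known. Named beside the members are 7 interferon response genes and, from each pathway list, up to 4 genes with the largest change among those called at week 15 and up to 2 at week 0. The genes most like a member were taken from the 3 with the highest correlation over biopsies. No sequences were analysed here.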

Additional observations from a re-analysis of the deposited data

Results flagged for a closer look

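In several groups of 4 to 10 animals the highest or lowest animal stood far from the others by Dixon's criterion. Of 100 groups of a member, week and treatment this held for 12. The rate of about 1 in 20 that the criterion gives by chance assumes normal values and independent groups. These groups share animals and correlated genes, so that an excess over that rate was not tested. Of these 4 belong to wIFN-α animal F1013, which had the highest LBP at weeks 15 (3477 CPM) and 23 (615 CPM), and at week 15 the highest HPX (10318 CPM) and HAMP (95.4 CPM). Placebo animal M1008 accounts for another 4, with LBP at 1204 CPM at week 23, A2M at 12105 CPM at week 19 and 8195 CPM at week 23, and the lowest HPX of its group at week 15 (1784 CPM). The others were CP in placebo animal M1011 at week 15 (1747 CPM), HAMP in wIFN-α animal M1007 at week 3 (412 CPM), and TFRC in wIFN-α animals F1018 at week 3 (59 CPM) and M1012 at week 11 (122 CPM).

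The effect of wIFN-α differed between stages of treatment by a test of the difference itself in LBP between doses (1.21 on the log2 scale), and between week 15 and the weeks after treatment in LBP (1.77), A2M (1.28), HPX (1.10), CRP (0.98) and CP (0.84).

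M1004, which entered the comparisons only as an alternative, was dosed with wIFN-α and lay outside the placebo range on the side of the treated group in 5 of the 15 values of members called at that week. Of the other 10, which lay within the placebo range, 6 were on the side of the treated group from the placebo median and 4 on the other side, such as HAMP at week 0 (76.1 CPM, placebo median 97.4) and A2M at week 15 (3738 CPM, placebo median 3914). Outside that range LBP was at 975 CPM at week 11 and 1035 CPM at week 15, HPX at 3796 CPM at week 15, and SLC40A1 at 146 CPM at week 0 and 144 CPM at week 11.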

How the results depend on the processing

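No member reversed its direction in a call, and under the alternatives 2816 values of members kept their side of the thresholds (130 of them, not called, with another sign), 30 came to pass and 104 no longer passed. The members called numbered 4, 1, 3, 2 and 5 at weeks 0, 3, 7, 11 and 15. A fold change above 2 left 1, 0, 0, 1 and 1 of them, and no fold threshold gave 5 at week 7 and 4 at week 11. With M1004 included there were 2 at week 0, 0 at week 3 and 3 at week 15. The replicate block by animal, fixed, gave 2 at week 0 and 3 at week 15, as a random block 2 at week 0, 0 at week 3, 2 at week 15 and 3 after withdrawal (5 without the block), and fixed without the muscle-rich biopsies 1 at week 0, 0 at week 3 and 1 (CP) between first and repeated doses. Removing these biopsies gave 0 at week 3. Lane as a covariate gave 2 at week 15 in a fit of all weeks and 2 after withdrawal. DESeq2 called 1 (HP) at week 19. Between doses 0 were called with week 3 alone or in limma-voom, which called 1 after withdrawal. HAMP at week 0 was lost in a fit of all weeks (adjusted p = 0.0587).

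Each wIFN-α animal was removed in turn in the comparisons of this paragraph. Removal of a placebo animal was run for weeks 15, 19 and 23 alone. How far the other counts rest on single placebo animals was therefore not tested. Leaving out single animals gave 1 to 4 members at week 0, 0 to 2 at week 3 and 3 to 4 at week 7. It gave 1 to 2 at week 11, 3 to 5 at week 15, 0 to 1 between doses and 2 to 6 after withdrawal. The count stayed at 0 at weeks 19 and 23, off treatment and between first and repeated doses. The counts moved by more than 1.5 times without M1007 (1, HAMP) or F1022 (2) at week 0, without F1014 or F1022 (0) and F1018 (2) at week 3, without M1002 or F1020 (1, LBP) at week 11, and without F1013 at week 15 (3), between doses (0) and after withdrawal (2). The cause was not tested, and the shares of all genes called without each animal are not given. HAMP had no reads in 2 biopsies, which allows up to 0.111 and 0.113 CPM.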

Other observations

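The 8 biopsies labelled with another week or with none were kept out of every comparison. All but that of M1002 came from animals that died or were euthanised. LBP, HP, CRP and CP were higher, and SLC40A1 lower, than in any of the 149 biopsies compared in wIFN-α animal F1023, which died, with severe pneumonia named by the study as the presumed reason, and whose label gives no week: LBP was at 11240 CPM, HP at 29888 CPM, CRP at 1796 CPM and CP at 3798 CPM, and SLC40A1 was at 49.3 CPM. HAMP was at 432 CPM in the same biopsy, and TFRC at 32.9 CPM. M1006, also dosed with wIFN-α, euthanised in failing health and labelled week 3, had LBP at 3751 CPM, CP at 2466 CPM and SLC40A1 at 95 CPM. F1020 had LBP at 2461 CPM and SLC40A1 at 102 CPM in a biopsy with MX1 at 244 CPM, and M1007 had HAMP at 252 CPM and TFRC at 10.6 CPM. In placebo animals M1010 and F1017, both euthanised with symptoms of terminal liver cancer, and F1024, found dead, LBP was at 519, 346 and 464 CPM, and SLC40A1 at 252, 230 and 197 CPM. M1002, sampled after treatment, had LBP at 454 CPM and HAMP at 0.194 CPM. These are single biopsies and no test was run on them.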
